A study of Mus musculus with 15 samples.

Results

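Genes of apoptotic cell clearance were followed in alveolar macrophages of 3 groups of mice. The 10 genes were the bridging ligands Gas6, Pros1 and Mfge8, the receptors Axl, Mertk, Tyro3, Stab1 and Cd93, the secreted and membrane-bound annexin Anxa1, and the engulfment adaptor Elmo1. A gene was taken where a probe carried its symbol and no other in the platform annotation, which gave 1 probe each for 9 of the 10, among 12909 genes named this way on the array. Stab1 was not analysed here. Of the 9, 7 had at least 3 values in each group and entered the test over all features, while Tyro3 and Elmo1 did not.

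These macrophages patrol the airspaces of the lung and clear dust, microbes and dead cells. Their RNA was measured on 15 spotted 2-colour arrays, each against a common reference labelled Mac Ref. There were 5 arrays of wild type mice (b6+/+Dox), 5 of mice deficient in integrin beta6 (b6-/-Dox) and 5 of beta6-deficient mice labelled as reconstituted with TGF-b1 (b6-/-TGFb+/+Dox), and all 3 groups had been given doxycycline. The labels do not name the promoter that drives TGFb1, the age or strain of the mice, or whether each array holds a separate animal, so the p-values reflect the spread among these samples only, and that spread may be technical. Wild type mice with added TGFb1 were not measured, so a return towards wild type and an effect of TGFb1 by itself cannot be told apart.

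Dying cells expose phosphatidylserine, and macrophages find it either directly or through bridging proteins. Gas6 and Pros1 (protein S) are vitamin K-dependent bridges that bind phosphatidylserine at one end and the receptor tyrosine kinases Tyro3, Axl and Mertk (the TAM receptors) at the other. Mfge8 (lactadherin) bridges to the integrins alphavbeta3 and alphavbeta5. Axl is a TAM receptor known for its presence on airway macrophages, and Gas6 is its ligand. The integrin alphavbeta6, absent from the mutant mice, sits on epithelium and releases active TGFb, and the design asks what its loss and the added TGFb1 do to macrophages.

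Each value is a log2 ratio of sample over reference after centring each array on its median. Neither the base of the logarithm nor the direction is stated in the sources used here. The direction is likely but not certain. It was taken from which channel held the reference and from Mmp12, a metalloproteinase that macrophages lacking beta6-activated TGFb are known to raise. Its mean was 4.57 ± 0.82 (SD, n = 5) for beta6 null, against 0.26 ± 0.22 (n = 4) for wild type and 2.26 ± 0.61 (n = 5) for the TGFb1 group. Were the ratio inverted, every sign below would turn. The genes the groups are named for did not differ in the direction of the labels by any amount that passed. Itgb6, the deleted gene, read -0.21 to 0.42 on 4 wild type arrays, -0.12 to 0.99 in beta6 null and -1.13 to 1.19 with TGFb1, and beta6 null stood at 0.39 against wild type (limma adjusted p = 0.733). Tgfb1 read -4.84 to 0.12, -2.76 to 1.04 and -2.21 to -0.14 in the same groups, and the TGFb1 group stood at -0.005 against beta6 null (limma adjusted p = 0.998). The integrin alphavbeta6 sits on epithelium, while this RNA is of macrophages. Where these probes lie relative to the deletion or the added TGFb1 is also not known here, so they do not check the labels. A ratio to a macrophage reference gives no absolute level, and no gene's level can be set against another's. Arrays held 11590 to 16457 values of 17195 probes, and the spread was widest, and the values fewest, on wild type replicate 2 (SD 2.008) and beta6 null replicate 1 (SD 1.998), against 0.84 to 1.62 elsewhere. In whole-cell RNA, fewer cells of a type and less RNA per cell cannot be told apart.

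Gas6 and Cd93 rose in beta6 null macrophages, and Axl rose with TGFb1. By limma with Benjamini-Hochberg adjustment over 13273 features, 2 of the 7 tested members passed in beta6 null against wild type, both higher, where 0.949% of all features were called (0.362% higher, 0.588% lower). In the TGFb1 group against beta6 null 1 of 7 passed, higher, where 0.708% were called (0.58% higher, 0.128% lower). In the TGFb1 group against wild type 0 of 7 passed, as did 0 of all features, with 833 features at an unadjusted p under 0.05. The members were chosen with earlier results of these data known, so their counts beside these shares are descriptive. The median difference of all features was -0.05, 0.12 and 0.07 in these comparisons, and each difference below can be read against it.

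The promoters of Gas6, Axl and Pros1 are shown because these are the TAM genes whose groups did not overlap in at least 1 comparison. Each line is the 250 bases before the start of the gene's RefSeq promoter entry on GRCm38.p6, read on the strand of the gene. Capitals mark the Smad box CAGAC (the core bound by the TGFb mediators, also as GTCTG on the opposite strand) and the GC box GGGCGG (also as CCGCCC). Gas6 lies at chr8:13494536-13494785 (minus strand), Axl at chr7:25788734-25788983 (minus strand) and Pros1 at chr16:62854057-62854306 (plus strand). For Gas6 and Pros1 the window ends where the RefSeq gene begins. The Axl entry starts inside the RefSeq gene, which extends to chr7:25788924, so most of the Axl window lies within the gene.
Gas6: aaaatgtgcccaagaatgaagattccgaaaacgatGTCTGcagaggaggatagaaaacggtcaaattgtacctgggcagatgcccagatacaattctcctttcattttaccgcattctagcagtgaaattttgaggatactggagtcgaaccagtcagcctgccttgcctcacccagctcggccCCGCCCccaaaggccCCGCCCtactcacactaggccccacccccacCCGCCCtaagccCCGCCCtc
Axl: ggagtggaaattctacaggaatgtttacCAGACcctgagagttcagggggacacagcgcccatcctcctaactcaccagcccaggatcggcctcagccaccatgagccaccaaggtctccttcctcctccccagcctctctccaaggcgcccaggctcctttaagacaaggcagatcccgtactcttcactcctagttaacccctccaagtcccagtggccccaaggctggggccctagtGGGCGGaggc
Pros1: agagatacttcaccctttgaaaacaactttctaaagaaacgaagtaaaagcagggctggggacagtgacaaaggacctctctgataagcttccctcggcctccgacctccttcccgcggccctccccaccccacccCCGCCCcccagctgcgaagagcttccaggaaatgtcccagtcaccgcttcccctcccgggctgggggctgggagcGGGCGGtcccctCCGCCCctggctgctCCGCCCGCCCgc

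Gas6 and Axl each held 1 Smad box, 215 and 222 bases before the start of the promoter entry, and Pros1 held 0. The Smad box was in 42.2% of 32851 promoter windows of this length. The GC box occurred 4 times before Gas6, 1 time before Axl and 5 times before Pros1, overlaps counted, and was in 32.7% of all windows. The AP-1 site TGANTCA (6.75% of windows) and the PU.1 site GAGGAAGT (2.44%, or ACTTCCTC) were searched on both strands too and had no match in the 3 windows. A match describes letters only. Of the 10 genes, 9 had a promoter entry.

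Gas6 (probe M200001537) gave -2.28, -1.17, 0.48 and -0.15 on the 4 wild type arrays with a value, 3.496, 2.46, 0.78, 1.69 and 2.07 on the beta6 null arrays, and -0.53, 1.005, -0.47, 0.64 and 0.52 with TGFb1. All beta6 null arrays lay above all wild type arrays, and 4 of 5 lay above all TGFb1 arrays. Groups that do not overlap were seen for 5.12% of all features in beta6 null against wild type. Gas6 was 7.35-fold higher in beta6 null (difference 2.88, SE 0.61, 95% interval 1.57 to 4.19, limma adjusted p = 0.0409). With TGFb1 it stood at -1.87 against beta6 null (SE 0.58, interval -3.10 to -0.63, limma adjusted p = 0.151), which did not pass. Against wild type the TGFb1 group stood at 1.01 (SE 0.61, interval -0.30 to 2.32, limma adjusted p = 0.820). In the order wild type, TGFb1, beta6 null, each group overlapped its neighbour.

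The Gas6 call lay close to the threshold. The difference kept its sign in 27 of 27 alternatives, from 2.03 to 3.30, and passed in 7, with adjusted p from 0.0121 to 0.437. Of the 15 fits without 1 array it passed in 2, without wild type replicate 4 and without beta6 null replicate 3, and the others reached at most 0.126. Without the arrays with the widest values it was 2.03 (adjusted p = 0.0999), and with the spread of all arrays made equal 2.05 (adjusted p = 0.078).

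Pros1 (probe M200004946), the other vitamin K-dependent TAM ligand and better known as an anticoagulant, was placed the opposite way. Its values were -1.75, -0.84, -1.85 and -0.88 on 4 wild type arrays, -2.64, -2.32, -1.94, -2.12 and -1.83 in beta6 null, and -0.67, -0.83, -0.79, -1.08 and -1.60 with TGFb1. The beta6 null arrays were the lowest, all below the TGFb1 arrays, and just overlapped wild type. The TGFb1 group stood 2.26-fold above beta6 null (difference 1.18, SE 0.30, interval 0.53 to 1.82, limma adjusted p = 0.0882), which did not pass. Non-overlap of the groups was seen for 8.26% of all features in that comparison. Beta6 null stood at -0.84 against wild type (SE 0.32, interval -1.52 to -0.16, limma adjusted p = 0.311). Without wild type replicate 2, an array on which Pros1 had no value, the difference of TGFb1 from beta6 null was the same 1.18 and passed (adjusted p = 0.0462). With array weights it passed at 0.98 (adjusted p = 0.0323), and with the spread made equal or quantile normalization it was 0.54 and did not.

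Mfge8 (probe M200000595) had values on 12 arrays. Wild type gave 0.19, -1.72 and 0.67, beta6 null 0.66, 1.37, 0.71 and 1.35, and the TGFb1 group 2.19, -0.13, 0.71, -0.61 and -0.02. The groups overlapped, and the widest spread was in wild type (SD 1.26, n = 3) and with TGFb1 (SD 1.09, n = 5). The difference of beta6 null from wild type was 1.31 (SE 0.69, interval -0.19 to 2.81, limma adjusted p = 0.491), and the interval includes 0.

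**Figure D1:**
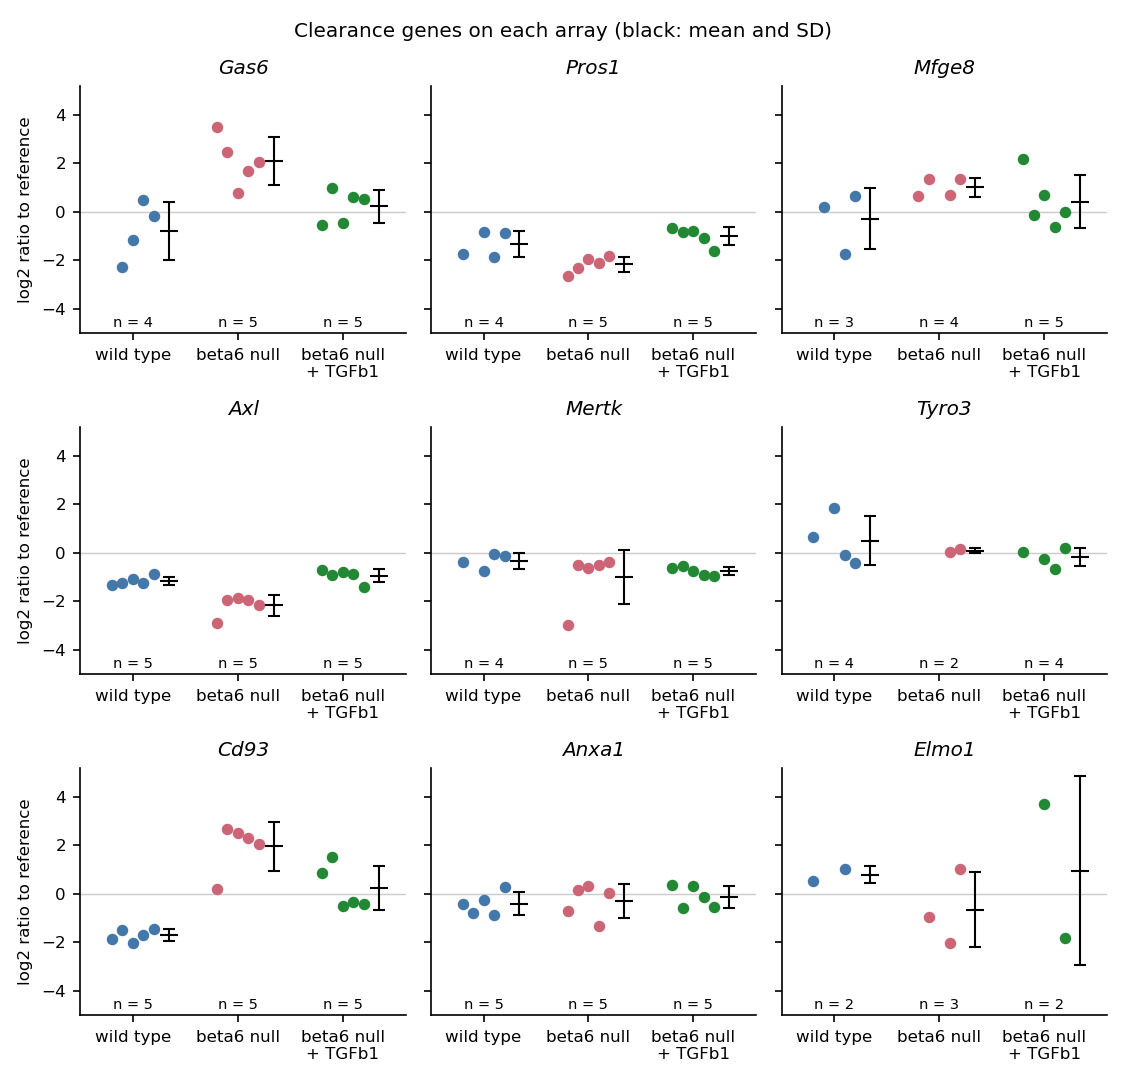
Log2 ratio to the reference, after median centring, of 9 clearance genes (panels), with 1 point per array and, in black, the mean and SD of each of the 3 groups. Gas6 and Cd93 are highest and Axl and Pros1 lowest in beta6 null, and Tyro3 and Elmo1 have values on 10 and 7 of the 15 arrays.

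Axl (probe M200001604) had a value on all 15 arrays. The wild type arrays read -1.31, -1.25, -1.09, -1.24 and -0.89. The beta6 null arrays read -2.90, -1.93, -1.88, -1.96 and -2.14, and the TGFb1 arrays -0.69, -0.93, -0.80, -0.85 and -1.39. Every beta6 null array lay below every array of both other groups, while wild type and TGFb1 overlapped. Groups did not overlap for 5.12% of all features in beta6 null against wild type. The share was 8.26% in the TGFb1 group against beta6 null. Axl rose 2.34-fold with TGFb1 against beta6 null (difference 1.23, SE 0.25, interval 0.69 to 1.77, limma adjusted p = 0.0397). In beta6 null it stood 2.01-fold below wild type (difference -1.01, SE 0.25, interval -1.55 to -0.47, limma adjusted p = 0.087), which did not pass. The TGFb1 group differed from wild type by 0.22 (interval -0.32 to 0.76, limma adjusted p = 0.897).

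The rise of Axl kept its sign in 28 of 28 alternatives and passed in 11, with adjusted p from 0.00216 to 0.492. It shrank to 0.65 under quantile normalization (adjusted p = 0.445) and to 0.61 with the spread of arrays made equal (adjusted p = 0.376), and came to 1.35 (adjusted p = 0.492) once Xist was a covariate. Of the 15 fits without 1 array it passed in 5, those without wild type replicates 2 or 5, beta6 null replicates 1 or 3, or TGFb1 replicate 5, and the others reached at most 0.121. The lower Axl of beta6 null passed in 2 of 28 alternatives, with features measured on all 15 arrays (adjusted p = 0.0354) and with array weights (adjusted p = 0.00788).

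Mertk (probe M200001822), the TAM receptor best known for engulfment by macrophages, did not pass in any comparison. It read -0.39, -0.75, -0.05 and -0.14 on wild type arrays and -2.98, -0.49, -0.61, -0.50 and -0.39 on beta6 null arrays. The TGFb1 arrays read -0.61, -0.53, -0.74, -0.92 and -0.93. Beta6 null replicate 1, an array of wide values, stood far below the rest. The difference of beta6 null from wild type was -0.66 (SE 0.46, interval -1.66 to 0.34, limma adjusted p = 0.598) and -0.16 without that array (limma adjusted p = 0.848). TGFb1 against beta6 null was 0.25 (interval -0.69 to 1.19), and without that array -0.25.

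Tyro3 (probe M200001103), the TAM receptor better known from neurons, gave 0.67, 1.85, -0.09 and -0.42 in wild type, 0.02 and 0.17 on the 2 beta6 null arrays with a value, and 0.04, -0.24, -0.68 and 0.22 with TGFb1. These ranges overlap. With the filter lowered to 2 arrays per group the difference of beta6 null from wild type was -0.41 (SE 0.61, limma adjusted p = 0.844).

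Cd93 (probe M200000240), a transmembrane lectin of myeloid and endothelial cells first described as a C1q receptor for phagocytosis, had the largest difference of the 7. The wild type arrays read -1.88, -1.47, -2.04, -1.69 and -1.43. The beta6 null arrays read 0.20, 2.70, 2.52, 2.32 and 2.08, and the TGFb1 arrays 0.85, 1.52, -0.49, -0.32 and -0.42. Wild type was lowest on every array. Non-overlap of beta6 null and wild type was seen for 5.12% of all features. The TGFb1 arrays lay between the other groups except that 2 of them exceeded the lowest beta6 null array. Beta6 null exceeded wild type 12.7-fold for Cd93 (difference 3.67, SE 0.49, interval 2.62 to 4.71, limma adjusted p = 0.00127). TGFb1 against beta6 null was -1.74 (SE 0.49, interval -2.78 to -0.69, limma adjusted p = 0.109), and -2.18 without beta6 null replicate 1, which passed (adjusted p = 0.0253). All TGFb1 arrays lay above all wild type arrays, as for 2.88% of features in that comparison, and the difference of 1.93 (SE 0.49, interval 0.89 to 2.97) did not pass over all features (limma adjusted p = 0.651).

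The rise of Cd93 passed in 27 of 28 alternatives, with differences from 3.18 to 4.17. The exception was the fit that took Xist on each array as a covariate (difference 3.18, adjusted p = 0.264), in which 0 of all features passed and Gas6 stood at 3.29 (adjusted p = 0.437). Xist, a noncoding RNA that coats the inactive X in female cells, had a mean of -0.40 ± 1.48 (SD, n = 5) in beta6 null. The wild type mean was -3.10 ± 0.71 and the TGFb1 mean -3.07 ± 0.49, so Xist moved with the beta6 null group. Whether the groups differed in sex is not known here and was not tested. The part of Xist in these differences was not tested beyond this fit.

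**Figure D2:**
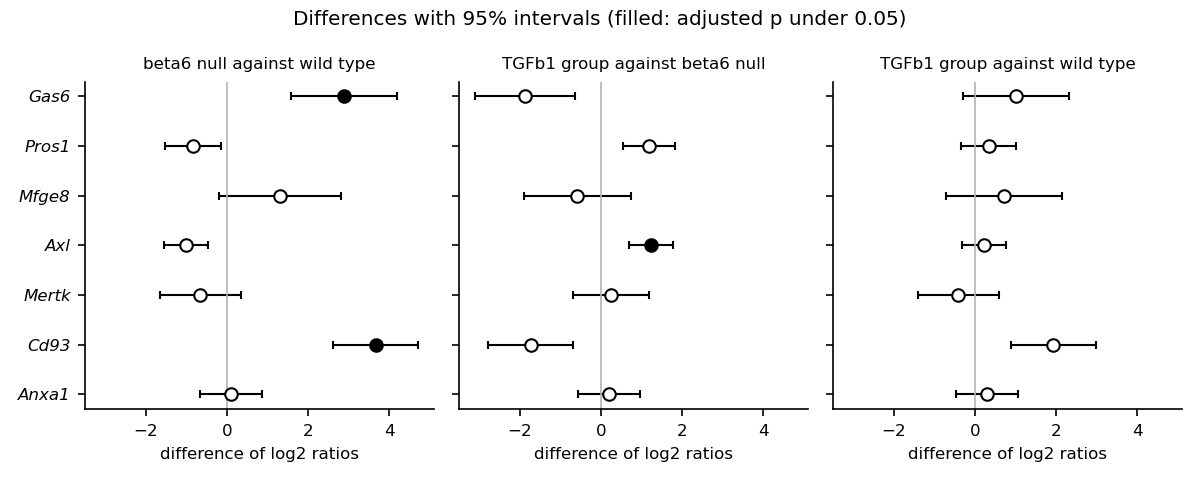
Differences of mean log2 ratios between groups (x axis) for the 7 tested genes in 3 comparisons, with 95% intervals of the limma fit and filled points where the adjusted p was under 0.05. Gas6 and Cd93 pass in beta6 null against wild type (2.88 and 3.67), and Axl passes in the TGFb1 group against beta6 null (1.23).

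Anxa1 (probe M200003353), an annexin exposed or released by dying cells that dampens inflammation, had a median of -0.41 on the wild type arrays (-0.87 to 0.29), 0.04 on the beta6 null arrays (-1.32 to 0.31) and -0.14 on the TGFb1 arrays (-0.57 to 0.38). The 3 ranges overlapped. The difference of beta6 null from wild type was 0.10 (interval -0.67 to 0.87, limma adjusted p = 0.939). With TGFb1 the difference from beta6 null was 0.20 (interval -0.58 to 0.97, limma adjusted p = 0.848).

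Elmo1 (probe M200013331), which with Dock1 activates Rac at the engulfing membrane, had values on 7 arrays. They were 0.54 and 1.05 in wild type, -0.95, -2.02 and 1.02 in beta6 null, and 3.71 and -1.81 with TGFb1. The TGFb1 values span more than all others together, and with the filter at 2 arrays per group the SE of the difference of beta6 null from wild type was 1.62. No difference of Elmo1 was detectable at this number of values.

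Set beside each other on the same arrays, Gas6 was high where Axl was low. The 5 beta6 null arrays held the 5 lowest Axl values, and 4 of the 5 highest Gas6 values. Beta6 null replicate 1 carried both the highest Gas6 (3.496) and the lowest Axl (-2.90) and Pros1 (-2.64) values. Pros1 and Axl were both lowest in beta6 null and both highest on TGFb1 replicate 1 (-0.67 and -0.69). Wild type and TGFb1 arrays lay among each other, and the beta6 null arrays stood apart from both by Axl. By Gas6 alone beta6 null overlapped the TGFb1 group (0.78 against 1.005). By Pros1 alone it overlapped wild type (-1.83 against -1.85). All arrays share a reference and the centring, and no coefficient is given.

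**Figure D3:**
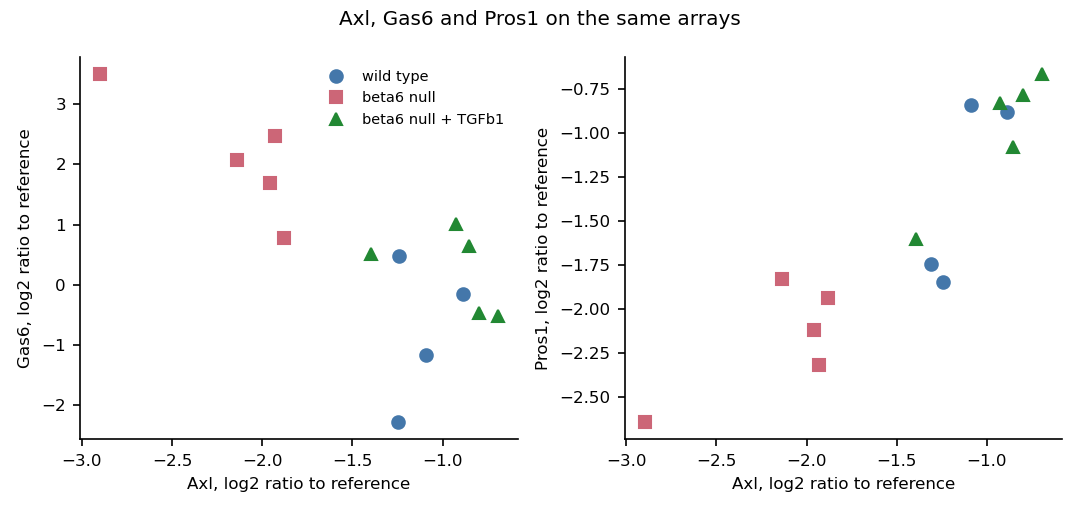
Gas6 (left) and Pros1 (right) against Axl on the same arrays, all as log2 ratio to the reference, 1 point per array with both values, marked by group. Beta6 null arrays have Axl at -1.88 or below, with Gas6 from 0.78 to 3.496 and Pros1 from -2.64 to -1.83.

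The genes with patterns nearest to Gas6 and Axl were found by the root mean square of the difference between 2 features on the arrays where both had a value, after each was centred on its own mean. For Gas6 the nearest of 9461 genes was Plxnb2, a plexin receptor for semaphorins, at 0.59 over 13 arrays, against a median of 1.61 over all genes. The beta6 null mean of Plxnb2 was 1.56, beside -0.99 for wild type and -0.50 for the TGFb1 group. Mesp2, Rassf2, Gli3 and Armt1 followed at 0.67 to 0.72, over 12, 13, 12 and 12 arrays. Their beta6 null means were 0.36, 0.59, 0.39 and 0.065, beside -0.02, -0.30, -0.40 and -1.78 for wild type. These 2 means lay closer together than those of Gas6 (2.10 and -0.78). For Axl the nearest of 10095 genes was Iqgap1, a scaffold of the actin cytoskeleton, at 0.22 over 15 arrays, against a median of 0.92, with a beta6 null mean of -2.01 beside -0.94 for wild type and -0.89 for the TGFb1 group. Imp3, Rpa1, Siae and Katna1 followed at 0.22 to 0.24.

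Beyond the 10 genes, 147 genes of clearance were listed and 110 of them tested. In beta6 null against wild type 3 were called, all lower, which is 2.73% beside 0.949% of all features, and the median difference of the 110 was -0.01. In the TGFb1 group against beta6 null 3 were called, all higher (2.73% beside 0.708%), with a median of 0.10 beside 0.12 for all features. Against wild type 0 of 110 passed. The lists were chosen with earlier results of these data known, so these shares are descriptive and do not test the pathway.

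Among bridging molecules and opsonins, 13 of 16 listed genes were tested, and beside Gas6 the 1 called was Apoh, a plasma protein that binds phosphatidylserine. Apoh fell in beta6 null (-3.68, SE 0.56, limma adjusted p = 0.00832) and rose with TGFb1 (3.497, SE 0.54, limma adjusted p = 0.0168). Its beta6 null mean of -4.33 ± 0.82 (SD) rests on 3 arrays, against -0.66 ± 0.998 (n = 4) in wild type and -0.84 ± 0.47 (n = 5) with TGFb1. The complement opsonin gene C1qb stood at 1.13 in beta6 null (SE 0.34, limma adjusted p = 0.181) and C1qa at 0.43. The list median was 0.43 in beta6 null and -0.59 with TGFb1.

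Of 32 engulfment receptors 21 were tested. In beta6 null Cd93 rose, while Olr1, a receptor of oxidised lipoprotein that also binds phosphatidylserine (-3.06, limma adjusted p = 0.000183), and Scarb1, the HDL receptor (-1.18, limma adjusted p = 0.0455), fell. Scarb1 stood at 1.13 with TGFb1 (limma adjusted p = 0.0605). With TGFb1 Olr1 (2.84, limma adjusted p = 0.00114) and Axl rose. The list median was 0.05 in beta6 null and -0.18 with TGFb1. Cd36, a scavenger receptor that works with Mfge8-bound integrins, stood at 0.86 in beta6 null (SE 0.31, limma adjusted p = 0.281). Itgav, Itgb3 and Itgb5, the chains of the Mfge8 receptors, stood at 0.50, 0.64 and 1.73 (limma adjusted p = 0.703, 0.698 and 0.477). With TGFb1 against beta6 null these chains stood at -0.18, -1.64 and -0.59 (limma adjusted p = 0.900, 0.205 and 0.769).

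In the TAM list 14 of 17 genes were tested and none beyond Gas6 and Axl was called. Ggcx and Vkorc1, the enzymes of the vitamin K-dependent carboxylation that Gas6 and Pros1 need, stood at -1.02 and 0.48 in beta6 null (limma adjusted p = 0.525 and 0.723). Adam10 and Adam17, proteases that shed TAM receptors, stood at 0.12 and -0.52 (limma adjusted p = 0.912 and 0.503), and Socs1 and Socs3, induced by TAM signalling, at 0.23 and 0.33 (limma adjusted p = 0.907 and 0.713).

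None of the tested genes passed in beta6 null among 17 of engulfment signalling, 9 of find-me signals and Anxa1 receptors, 6 of do-not-eat-me signals, 10 annexins, 17 of phagosome maturation and 13 of the metabolic response to engulfed cells. The do-not-eat-me gene Cd47 stood at -1.07 in beta6 null (SE 0.32, limma adjusted p = 0.161) and 0.94 with TGFb1 (limma adjusted p = 0.180), and its receptor Sirpa at -0.49 and 0.57 (limma adjusted p = 0.480 and 0.316). In the metabolic list 12 of 13 genes stood above 0 with TGFb1 against beta6 null, beside 56.7% of all features (median 0.81 beside 0.12). Only 1 of the 13 passed, Pparg, the nuclear receptor of lipid handling (1.84, SE 0.35, limma adjusted p = 0.0332), and the gene not above 0 was Tgfb1 itself (-0.005, limma adjusted p = 0.998). With TGFb1 against wild type 12 of the 13 also stood above 0, beside 55.4% of all features (median 0.49 beside 0.07), and 0 passed. Of 4 lectins of the Cd93 family, Cd93 passed, while Cd248, Clec14a and Thbd stood at 2.17, -0.74 and -0.01 in beta6 null (limma adjusted p = 0.455, 0.750 and 0.995).

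**Figure D4:**
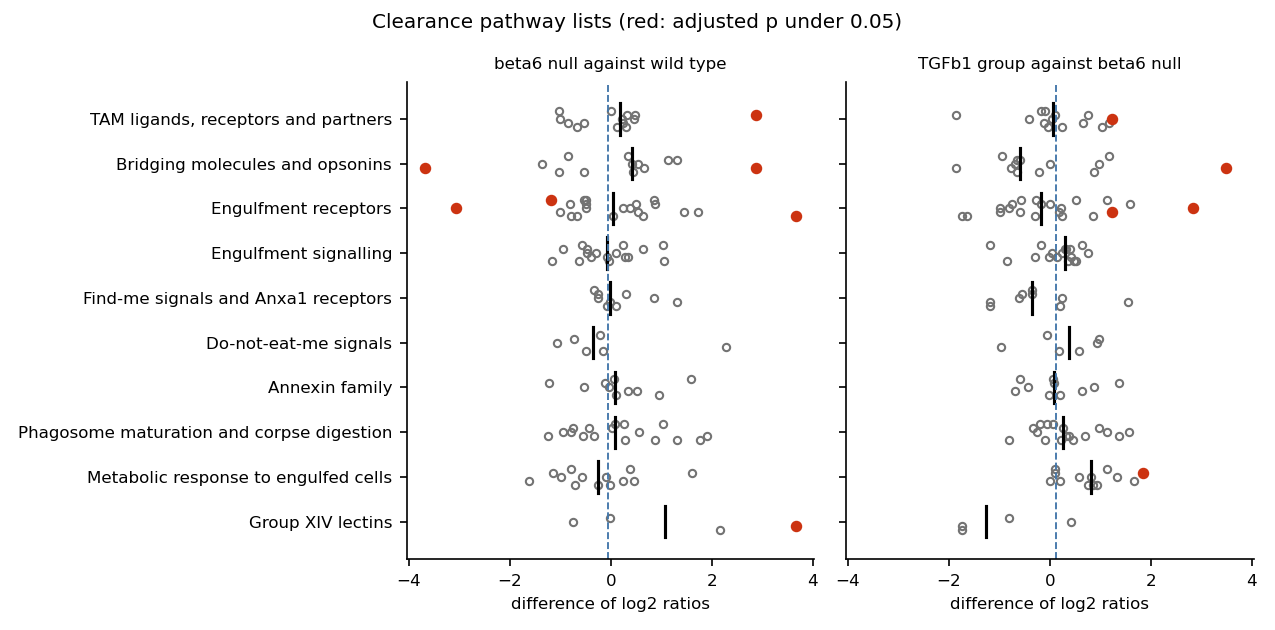
Difference of log2 ratios (x axis) of each tested gene in 10 clearance lists, in beta6 null against wild type (left) and the TGFb1 group against beta6 null (right). Red points passed over all features, black bars are list medians and the dashed line is the median of all features (-0.05 and 0.12).

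Levels of cell type markers lay beside these values as follows, each as the range over arrays of the mean log2 ratio of a list. The 16 of 22 alveolar macrophage markers tested read -2.21 to -2.03 on beta6 null arrays, beside -1.38 to -0.35 for wild type and -1.05 to -0.52 for the TGFb1 group. Of the 16, 5 fell in beta6 null (Olr1, Fabp1, Il18, Cidec and Krt19), and 5 rose with TGFb1 against beta6 null, the comparison in which Axl rose (Olr1, Il18, Fabp1, Krt19 and Pparg). Dendritic cell markers (10 of 12) lay at 0.20 to 0.35 on beta6 null arrays, beside -0.68 to -0.08 for wild type and -0.54 to -0.21 for the TGFb1 group. Of these Ly75 fell in beta6 null (-2.72, limma adjusted p = 0.00117), and Itgae fell with TGFb1 against beta6 null (-3.89, limma adjusted p = 0.0332). Monocyte and interstitial macrophage markers (10 of 16) lay at 0.18 to 1.23, beside -0.25 to 0.26 and -0.84 to 1.22, with 0 of 10 called.

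Endothelial markers (7 of 15) lay at -1.54 to -0.26 on beta6 null arrays, beside 0.10 to 0.47 for wild type and -1.54 to -0.02 for the TGFb1 group. They went both ways in beta6 null. Flt1 (-4.16) and Eng (-1.97) fell, while Pecam1, Clec14a and Plvap stood at -0.74, -0.74 and -0.48, and Tie1 and Esam at 0.68 and 0.45, and none of these 5 passed. B and plasma cell markers (6 of 10) lay at -0.03 to 0.80 on beta6 null arrays, beside -0.76 to 0.05 and -0.87 to -0.05. T and NK cell markers (10 of 14) lay at -0.04 to 0.59, beside -0.66 to 0.08 and -0.57 to 0.07, and the 2 of 7 erythroid markers at 0.30 to 1.22, beside -2.79 to 0.27 and -0.75 to 0.76. Neutrophil markers (8 of 11) lay at -0.59 to 0.97, beside -0.70 to -0.04 and -1.41 to -0.08, and went both ways in beta6 null. S100a8 rose and the other 7 did not pass. Of the 8, 4 stood above 0, while Csf3r, Mpo, Ngp and Ltf stood at -0.76, -0.48, -0.18 and -0.12. The ranges of the 3 groups overlapped for lung epithelium (11 of 16) and fibroblasts (7 of 9). Of the epithelial markers Epcam and Krt19 fell and Sftpc rose in beta6 null, while Epcam and Krt19 rose with TGFb1 against beta6 null. Krt19 is in the alveolar macrophage list too, so it does not tell these cell types apart. The part of such cells in the values of Gas6, Axl, Pros1 and Cd93, which endothelium also carries, was not tested.

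The array titles end in 1 or 2, with no meaning given, and both endings occur in every group. Within ending 1 Gas6 differed by 4.38 between beta6 null (n = 4) and wild type (n = 1), and within ending 2 by 2.35 (n = 1 and 3). Axl differed by 1.31 and 1.10 between the TGFb1 group (n = 3 and 2) and beta6 null (n = 4 and 1), and Cd93 by 3.61 and 3.80 between beta6 null (n = 4 and 1) and wild type (n = 2 and 3). The direction was the same within both endings. With the ending as a block, Cd93 passed (3.67, limma adjusted p = 0.00494), while Gas6 (3.08, limma adjusted p = 0.102) and Axl (1.22, limma adjusted p = 0.0695) did not.

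**Figure D5:**
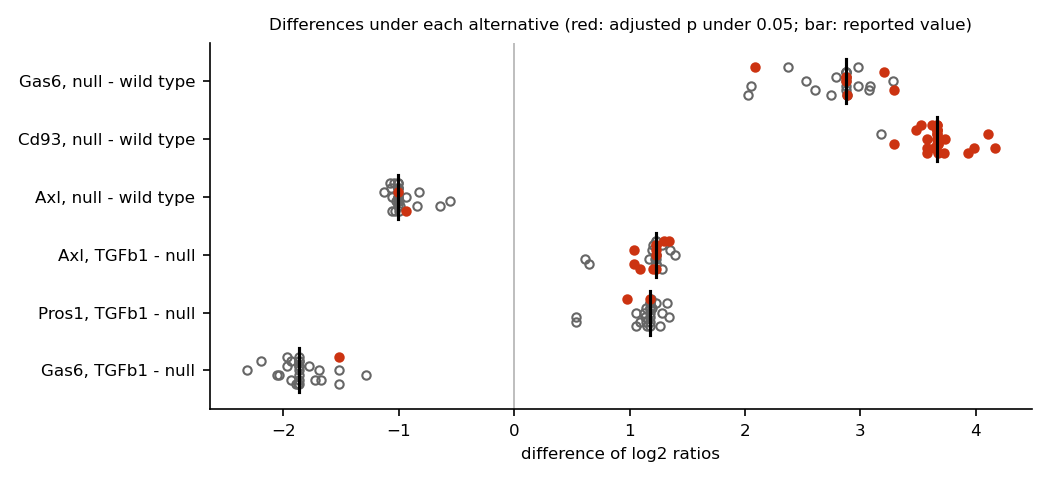
Difference of log2 ratios (x axis) for 6 results on Gas6, Cd93, Axl and Pros1 under each of up to 28 alternative settings, red where the adjusted p was under 0.05, with a bar at the reported value. Every point keeps the sign of its bar, Cd93 passes in 27 of 28 settings, and Gas6 in beta6 null passes in 7 of 27.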

How the data were processed

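The deposited table holds 1 log2 ratio for each probe and array. The authors' scanning and normalization before these log2 ratios were deposited, and their genome build, are not given in the sources used here. Values ran from -8.44 to 9.49, and base 2 was taken because base 10 would exceed the range of a scanner.

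Of 17225 probes 30 control spots, recognised by name, were left out. Of the 17195 others, 13972 had 1 symbol in the platform annotation, 13 several and 3210 none, and 13869 of those with 1 symbol were matched to RefSeq by Entrez ID (GRCm38.p6). Each array was centred on its median, probes of 1 gene were averaged (each member had 1), and 13273 features passed a minimum of 3 arrays with a value per group. All 15 arrays entered 1 fit of the 3 group means in limma 3.58.1 (R 4.3.3, moderated by eBayes), with Benjamini-Hochberg adjustment and a threshold of 0.05. Errors of differences are SEs of that fit. The steps were run on simulated data in which each feature had the same spread on every array. The unequal spread of these arrays was not simulated, so that run does not bear on the calls.

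The members, gene lists, markers and alternatives (28 settings, 15 of them leaving out 1 array) were chosen with earlier results of these data known. Genes named are the members, called list genes, the 5 nearest patterns of Gas6 and Axl, and, chosen after their values were seen, uncalled list genes with a known part in the pathway. Replicate numbers name arrays and pair none. Promoter sequences are RefSeq's.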

Additional observations from a re-analysis of the deposited data

Results flagged for a closer look

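3 values stood apart from the others of their group by the size of the gap relative to the group's range, among 22 sets of 4 or 5 arrays examined. Chance marks about 1 set in 20 where sets are independent and arrays spread alike. These sets share arrays of unequal spread, so that rate need not hold here. All 3 were on beta6 null replicate 1, 1 of the 2 arrays with the widest values. Axl read -2.90 there, with the nearest other beta6 null array at -2.14. Mertk read -2.98, with the nearest at -0.61. Cd93 read 0.20, with the nearest at 2.08. Without this array the difference of beta6 null from wild type was 4.11 for Cd93, -0.16 for Mertk and -0.82 for Axl, beside 3.67, -0.66 and -1.01 with it.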

How the results depend on the processing

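Across 28 settings the members' differences gave the same direction and the same side of the threshold in 507 cases, lost the call in 38, gained one in 8 and changed sign in 11. Most of these cases had no call to lose. The reported calls passed in 7 of 27 settings for Gas6, 11 of 28 for Axl and 27 of 28 for Cd93. Features called in beta6 null against wild type and in TGFb1 against beta6 null (126 and 94 as reported) came to 76 and 15 with quantile normalization, 61 and 11 with the spread of arrays made equal, 190 and 321 without the 2 widest arrays, 64 and 43 with the title ending as a block, 433 and 1000 with array weights, 78 and 30 without the 2 arrays whose title numbers stand apart from the rest, and 0 and 0 with Xist as a covariate. Fitting only the 2 groups gave 41 in the first, and requiring all 15 arrays gave 220 in the second. The TGFb1 group against wild type (0) gave 1 with only the 2 groups and 2 with array weights. Leaving out 1 array gave 64 to 154, 23 to 318 and 0 to 1. The split of higher and lower calls in beta6 null moved from 48 and 78 to 40 and 36 with quantile normalization and to 30 and 31 with equal spread, and with TGFb1 from 77 and 17 to 8 and 7 and to 8 and 3. Members called (2 and 1) were 1 and 0 with quantile normalization, equal spread, only the 2 groups, the block, or without the arrays whose numbers stand apart, 0 and 0 with Xist, 1 and 2 without the widest arrays, 3 and 4 with array weights, and 2 and 0 at 2 arrays per group. Leaving out 1 array gave 1 to 2 and 0 to 2. Mertk with TGFb1 against beta6 null changed sign with quantile normalization (-0.27), equal spread (-0.22), array weights (-0.28) and without the widest arrays (-0.25), and ran from -0.25 to 0.40 without 1 array. Anxa1 in beta6 null changed sign with array weights (-0.22) and Xist (-0.69), and ran from -0.053 to 0.36 without 1 array, and with TGFb1 from -0.059 to 0.35. The cause was not tested. Mfge8 gave no value without any 1 of its 3 wild type arrays, and Gas6, Mertk, Pros1 and Mfge8 gave none when all 15 arrays were required. No paired analysis was possible because the labels give the groups no shared replicate numbers. Missing values, the number of arrays and the unstated direction, base and earlier normalization limit every value.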
